A study of Oryza sativa with 2 samples.

Results

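Genes of the GH3 family of rice were followed in the developing collar, where the leaf blade joins its sheath. GH3 enzymes activate a plant hormone with ATP and join it to an amino acid. Joined to aspartate or glutamate, the auxin indole-3-acetic acid is stored or sent to breakdown, so that these enzymes lower active auxin. Joined to isoleucine, jasmonic acid becomes the form that the COI receptors bind, so that a GH3 enzyme of that kind completes the active hormone. Many GH3 genes were first known as genes that auxin itself switches on within a short time. The members were chosen by name, as the genes of which a symbol or synonym reads GH3, a hyphen or dot and a number, with or without Os before it. Of the 9 genes so found, all 9 had a probe set of their own, among 17905 genes that did, and together they held 11 probe sets. They are not the whole rice family, as GH3 genes to which the gene table gives no such name were not analysed here. The 3 genes set in front, OsGH3-8, OsGH3-6 and OsGH3-4, were selected on the measured log2 ratios of these same arrays, so their differences are given as a description, with no test.

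Collars were taken at the heading stage from antisense OsLIC plants and from wild type plants grown in the same field. The antisense plants carried the full-length OsLIC cDNA in reverse orientation behind a maize ubiquitin promoter, which drives it in most tissues, and all came from line 2, a single transgenic line. Each RNA was a pool of 30 collars, 1 per plant, and was hybridised to 1 GeneChip Rice Genome Array per genotype. As each genotype has 1 array, no spread between samples can be given, differences are without replicates, and precision is limited by that number of arrays.

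The targeted gene had the higher signal under the label of the plants made to suppress it. OsLIC had a signal of 2069 under the antisense label and 220 under the wild type label, 9.41-fold higher under the antisense label, and what its probe set reads of the construct was not tested. This signal alone does not settle whether the labels were exchanged. Directions below are therefore those between the arrays as labelled. LG1, a gene needed to form the lamina joint, had signals of 641 under the antisense label and 494 under the wild type label, so the marker of the labelled tissue was present on both arrays. Of the leaf blade markers past the minimum, CAB2R, which binds chlorophyll, had 12844 under the antisense label and 25685 under the wild type label, just short of 2-fold, and a second probe set of it was past 2-fold, with 5531 and 12945 under those labels (-1.23). The gene rbcS, for the small subunit of Rubisco, had a log2 ratio of 0.79 by its brightest probe set, and 0.60 and -0.39 by a pair of others, so that its probe sets did not share a sign. Of 57194 probe sets that are not controls, 26697 had 100 or more on at least 1 array, the minimum set for a comparison, and their median log2 ratio was -0.01. A log2 ratio here is that of the antisense label over the wild type label, with signals under 20 first set to 20, and a probe set was counted as higher or lower from 2-fold, a log2 ratio of 1 or -1.

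Across the GH3 genes so named the largest differences ran in opposite directions. OsGH3-8 and OsGH3-6 had more than 2-fold the signal under the antisense label, and OsGH3-4 was lower there by over 2-fold. Those were 2 higher and 1 lower of the 7 probe sets, 1 for each of 7 genes, that passed the minimum. Among all probe sets past the minimum 5.28% were at least 2-fold higher and 4.64% at least 2-fold lower, figures printed for scale, since the same ratios chose these genes. The other 4 probe sets past the minimum had log2 ratios between -0.51 and 0.01. The last member inside the choice was OsGH3-4 at -1.47, and the nearest past the minimum outside it was OsGH3-2 at -0.51. From OsGH3-8 to OsGH3-4 the ratios spanned 5.82 on the log2 scale. All 4 probe sets under the minimum belonged to OsGH3-1, OsGH3-9 and OsGH3-7.

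**Figure D1:**
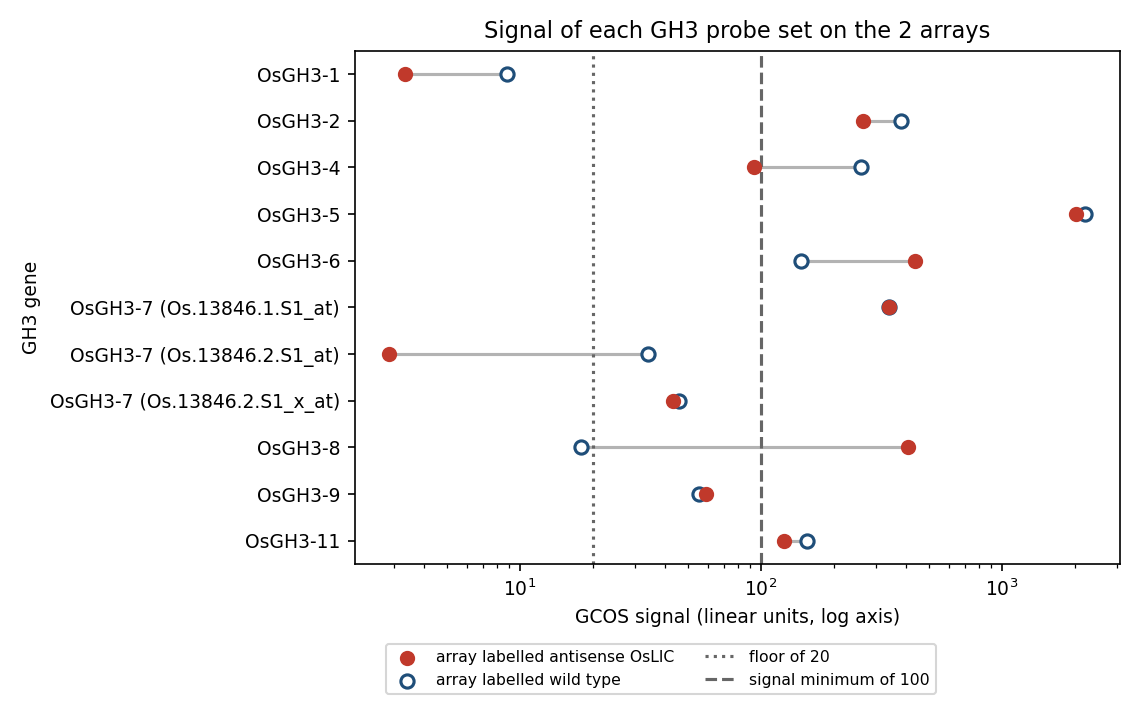
GCOS signal (linear units on a log axis) of the 11 GH3 probe sets, with filled points for the array labelled antisense OsLIC and open points for the array labelled wild type; dotted and dashed lines mark signals of 20 and 100. The points lie far apart for OsGH3-8 (407 against 17.9), OsGH3-6 and OsGH3-4, and nearly cover each other for OsGH3-5 and the brightest OsGH3-7 probe set.

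Of the members known to conjugate auxin, OsGH3-8 had by far the largest ratio. OsGH3-8 joins indole-3-acetic acid to aspartate, and it is also called OsMGH3, and in the panicle it lies downstream of the floral factor OsMADS1. Its probe set Os.11798.1.S1_at, designed on the cDNA AK101193, had a signal of 407 under the antisense label and 17.9 under the wild type label. The lower signal was under 20, so that with the floor the ratio is given as a bound, at 20.3-fold or more (log2 ratio 4.35). The deposited signals as they stand give a log2 ratio of 4.5, but a signal under 20 is not read as exact here. Of the 26697 probe sets past the minimum, 18 had a log2 ratio that high or higher, OsGH3-8 included. How large the difference was depended on how the dim signal was treated, since the log2 ratio was 3.02 with signals under 50 set to 50 and 2.75 with 50 added to both signals. The call was the same under both, and neither treatment can reverse the direction.

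OsGH3-2, which also conjugates indole-3-acetic acid, was lower by less than 2-fold. Its probe set Os.12501.1.S1_at (AK102809) had signals of 266 under the antisense label and 380 under the wild type label, a log2 ratio of -0.51. OsGH3-1, known as LC1, is the member of which a gain-of-function mutant has a widened lamina joint angle. Its probe set Os.36449.1.S1_at (AK063368) had signals of 3.34 under the antisense label and 8.83 under the wild type label. Both lie under 20, so no ratio is given.

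OsGH3-5, also named OsJAR1, had nearly the same signal on both arrays. It joins jasmonic acid to isoleucine. Its probe set Os.21108.1.S1_at (CB661567) had signals of 2030 under the antisense label and 2210 under the wild type label, a log2 ratio of -0.12. Both signals are well clear of the minimum, so that no floor enters this ratio, and it stayed between -0.12 and -0.11 under the 5 other normalizations and floors tried.

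For the remaining members no substrate is given here, since none was certain enough to state. OsGH3-6 (Os.54708.1.S1_at, AK106538) had signals of 436 under the antisense label and 146 under the wild type label, 2.99-fold higher (log2 ratio 1.58). It is the 1 member past 2-fold with both signals at or above 100. OsGH3-4 (Os.16010.1.S1_at, AK101932) had signals of 93.7 under the antisense label and 260 under the wild type label, a log2 ratio of -1.47. Its signal under the antisense label fell just short of 100. OsGH3-6 and OsGH3-4 were thus of similar size in ratio and opposite in sign, and their log2 ratios lay 3.05 apart. A log2 ratio as high as that of OsGH3-6 was reached by 671 probe sets, and one as low as that of OsGH3-4 by 569, out of 26697 in each case.

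OsGH3-7 is the member with 3 probe sets, and they did not all read alike. The brightest, Os.13846.1.S1_at (AK099376), had signals of 340 under the antisense label and 339 under the wild type label, a log2 ratio of 0.01. A pair of probe sets designed on another cDNA of the gene, AK107353, stayed under the minimum. Of these, Os.13846.2.S1_x_at had 43.3 under the antisense label and 45.6 under the wild type label (-0.07), while Os.13846.2.S1_at had 2.87 and 34.0 under those labels (-0.76 after the floor of 20). The suffix _x_at marks probes that can also bind other transcripts. OsGH3-11, measured by a probe set of that suffix (Os.50601.1.S1_x_at, AK122014), had signals of 124 under the antisense label and 155 under the wild type label, a log2 ratio of -0.32. OsGH3-9 (Os.54822.1.S1_at, AK106839) had signals of 59.1 under the antisense label and 55.5 under the wild type label, both under the minimum (0.09). Each of these 3 genes was thus within 2-fold by its brightest probe set.

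The spread of all probe sets depended on their brightness, and each member was set beside probe sets of its own range. Of 5851 probe sets with a signal from 200 to 500 on the brighter array, the middle 95% had log2 ratios from -1.26 to 1.45, and 9.86% were past 2-fold in either direction. OsGH3-8 and OsGH3-6 lay above that range and OsGH3-4 below it, while OsGH3-2 and OsGH3-7 lay within it. The margins were small for OsGH3-6 (1.58 against 1.45) and OsGH3-4 (-1.47 against -1.26) and wide for OsGH3-8. OsGH3-11 fell among 5614 dimmer probe sets, with signals from 100 to 200, of which 24.5% were past 2-fold and the middle 95% spanned -2.38 to 2.42. OsGH3-5 fell among 5699 probe sets of 2000 or more, where 4.16% were past 2-fold and the middle 95% spanned -0.89 to 0.95. These ranges describe differences between genes on these 2 arrays and are not errors of measurement. OsGH3-8, OsGH3-6 and OsGH3-4 were chosen on these same ratios, so their place outside the range is a description and no test.

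**Figure D2:**
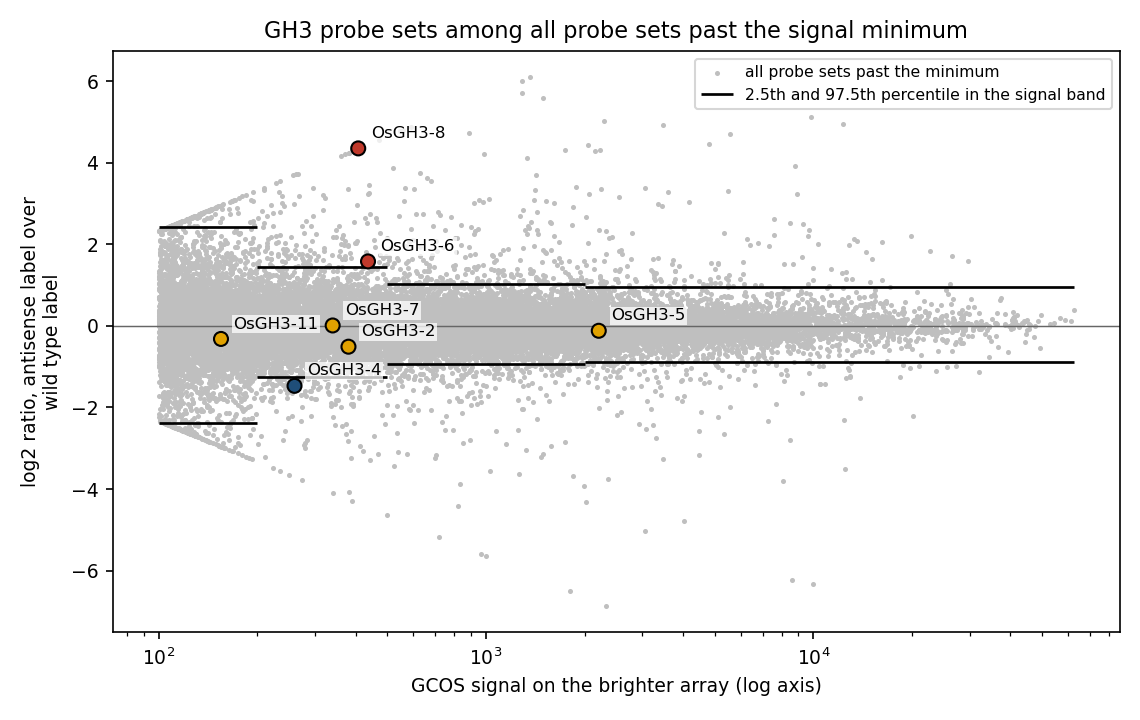
Log2 ratio, antisense label over wild type label, against the GCOS signal on the brighter array (log axis) for 26697 probe sets past the minimum (grey) and the 7 GH3 probe sets among them (red at least 2-fold higher, blue at least 2-fold lower, yellow neither); black lines bound the middle 95% of each signal range. OsGH3-8 stands at 4.35, far above its range, OsGH3-6 and OsGH3-4 just outside it, and the other 4 near 0.

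The 3 genes past 2-fold kept their sign when the arrays were normalized in other ways. With centring on the median, with quantile or loess normalization, and with a pseudocount or a floor of 50, the log2 ratio of OsGH3-8 lay between 2.75 and 4.36, that of OsGH3-6 between 1.31 and 1.60 and that of OsGH3-4 between -1.48 and -1.11. All of these lie past 2-fold. A floor or pseudocount common to both arrays cannot reverse the order of 2 signals, so the kept sign is no test under those settings. The arrays were already scaled alike, with a median log2 ratio of -0.01, so centring, quantile and loess normalization moved these ratios little. None of the settings stands in for replicates. With a signal of 100 required on both arrays, OsGH3-6 was the 1 GH3 probe set still counted, as OsGH3-8 and OsGH3-4 each had a dimmer signal under 100. At 3-fold in place of 2-fold, OsGH3-8 was the 1 counted.

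**Figure D3:**
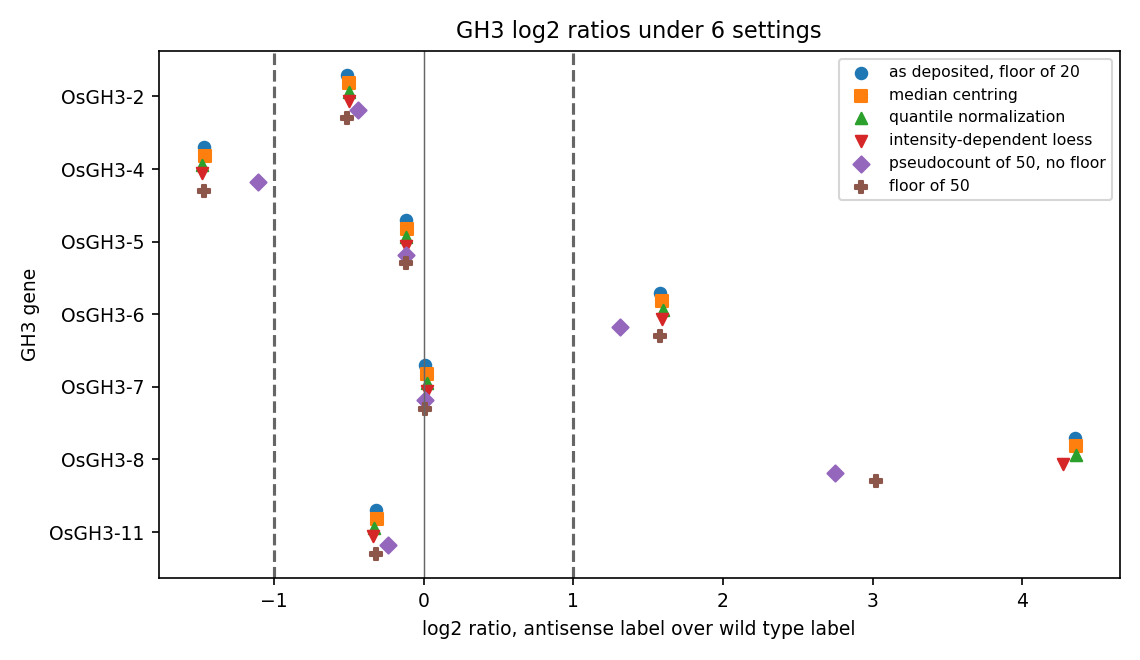
Log2 ratio, antisense label over wild type label, of the 7 GH3 genes past the minimum under 6 settings, with dashed lines at 2-fold. OsGH3-8 moved most, to 2.75 with a pseudocount of 50, while OsGH3-2, OsGH3-5, OsGH3-7 and OsGH3-11 stayed within 2-fold under each setting.

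The genes next to each GH3 gene were looked at as well. In the order of genes of the RefSeq assembly ASM3414082v1, none of the 9 genes lay among the 5 protein-coding genes on either side of another of the 9. GH3 genes without such a name were not looked for among the neighbours. Around OsGH3-8, 6 neighbours passed the minimum, with log2 ratios from -0.52 to 0.45, and around OsGH3-6, 7 did, from -0.80 to 0.07. None of these was past 2-fold. Around OsGH3-4, 1 of 6 neighbours was past 2-fold, and it was higher (1.51) where OsGH3-4 was lower. Members not past 2-fold also had such neighbours, 1 higher and 1 lower around OsGH3-5 and 1 lower each around OsGH3-7 and OsGH3-9. Over all genes, each by its brightest probe set, 3.73% were at least 2-fold higher and 2.85% at least 2-fold lower. Counts this small are not read as a result.

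Genes that act on auxin beside GH3 were then counted, each by its brightest probe set past the minimum. Over all genes measured this way 3.73% were at least 2-fold higher and 2.85% at least 2-fold lower, with a median log2 ratio of -0.01. Of 48 auxin genes, none was past 2-fold upward and 2 were past it downward, with a median of -0.21. The closest to GH3 in function are those that undo or bypass conjugation, the ILL genes, named as amidohydrolases that free auxin from its conjugates, and DAO, a dioxygenase that oxidises auxin. None of 7 such genes was past 2-fold (median 0.04). ILL8 had signals of 249 under the antisense label and 441 under the wild type label (-0.82), ILL2 had 202 and 127 under the same labels (0.67), and DAO had 712 and 784 (-0.14). With 3.73% higher and 2.85% lower over all genes, none past 2-fold among 7 is near the share over all genes. OsGH3-8 and OsGH3-6 were chosen for their ratios, so no contrast with the 7 is drawn.

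The Aux/IAA proteins, repressors that are destroyed when auxin is perceived, are like GH3 genes often induced by auxin. Of 20 measured, 1 lay past 2-fold, downward, and the median was -0.44. The 1 was a gene that carries the names IAA20 and IAA4, with signals of 26.9 under the antisense label and 128 under the wild type label (-2.25). That probe set has the suffix _x_at. A second probe set of the gene, with neither signal at 100, had 59.2 and 70.2 under those labels (-0.25). A further one had 8.36 and 8.79 under those labels, both under 20. IAA19 had signals of 350 under the antisense label and 684 under the wild type label (-0.96). Of 16 auxin response factors, the transcription factors that bind auxin response elements, ARF10 was the 1 past 2-fold, with 18.4 under the antisense label and 147 under the wild type label, at least 7.35-fold lower. The list had a median of -0.23. ARF10 and the gene named IAA20 and IAA4 passed the minimum only through the wild type label, and a gene that passes in that way had to differ. ARF14 had a log2 ratio of -0.63. Of 3 auxin carriers, the gene named PIN5A and PIN6 came just short of 2-fold, with signals of 453 under the antisense label and 904 under the wild type label, and the gene named PIN5 and PIN9 had a log2 ratio of 0.78. The small auxin-up gene SAUR39 (0.07) and the auxin synthesis gene TAA1, also named FIB (0.18), were the single genes of their kinds past the minimum. No gene of the auxin receptor list was matched. Of the 7 GH3 probe sets past the minimum, 4 had a negative log2 ratio, the sign of the Aux/IAA and response factor medians. The other 3 had a positive one, and the GH3 median was -0.12. As OsGH3-8, OsGH3-6 and OsGH3-4 were chosen on these ratios, no likeness to the auxin lists is read from these signs.

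On the jasmonate side, OsGH3-5 was within 2-fold, while some genes for early steps of jasmonate synthesis were past it. Of 27 jasmonate genes, 7 lay past 2-fold upward and 0 downward, beside 3.73% upward and 2.85% downward over all genes, with a median of 0.45. Among enzymes listed for synthesis these were 5 of 11 (median 0.63). The lipoxygenase gene LOX8, of the enzymes that open the pathway, had signals of 167 under the antisense label and 3.41 under the wild type label, at least 8.35-fold higher, and LOX9 was 2.13-fold higher. AOS1 and AOS2, allene oxide synthases of the second step, were 2.19-fold and 2.22-fold higher. The oxophytodienoate reductase gene OsOPR5 had signals of 1421 under the antisense label and 109 under the wild type label (log2 ratio 3.70), while a second probe set of it, under the minimum, had 57.9 and 30.5 under those labels (0.92). The enzyme of that gene is of a subgroup not known to make jasmonate. OsOPR7, the reductase known to act in jasmonate synthesis, had signals of 5561 under the antisense label and 4077 under the wild type label (0.45), within 2-fold. The allene oxide cyclase gene OsAOC, which forms the ring of the hormone, had 6113 under the antisense label and 6617 under the wild type label (-0.11). Of 16 genes downstream of OsGH3-5, the JAZ repressors and the COI receptors that bind jasmonoyl-isoleucine, 2 were at least 2-fold higher (median 0.34). They were JAZ2, with 249 under the antisense label and 78.3 under the wild type label (1.67), and the gene named JAZ11 and JAZ5, with 430 and 203 under those labels (1.08). The receptor genes COI1A, COI2 and COI1B had log2 ratios of -0.37, -0.08 and -0.06. LOX8 and JAZ2 passed the minimum only through the antisense label, and a gene that passes in that way had to differ. With 100 required on both arrays, 5 jasmonate genes were counted as higher. With 50 added to both signals and no floor, 4 jasmonate genes were counted as higher.

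**Figure D4:**
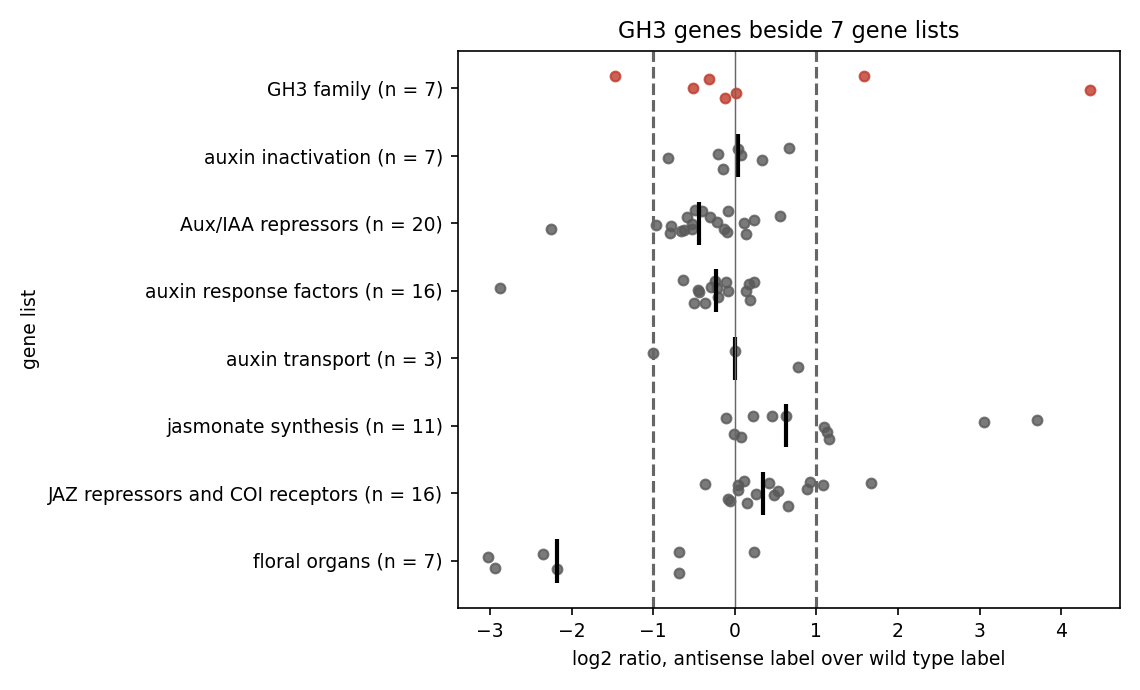
Log2 ratio, antisense label over wild type label, of each gene past the minimum among the named GH3 genes (red) and in 7 gene lists (grey), with the median of each list as a black bar and dashed lines at 2-fold. The GH3 genes reach from -1.47 to 4.35. The auxin lists have medians from -0.44 to 0.04 with genes on both sides of 0, up to 0.78, and the jasmonate lists lie mostly above 0.

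Some MADS-box genes, from a list drawn up for floral organs as a tissue that dissected collars could hold at heading, also differed between the arrays. OsGH3-8 is known from the panicle. Of 16 such MADS-box genes 7 passed the minimum, and 4 of them had over 2-fold less signal under the antisense label, beside 2.85% over all genes. MADS14 had signals of 555 under the antisense label and 2510 under the wild type label, and MADS15 had 53.7 and 413 under those labels. The others were MADS34, with 2.97 under the antisense label and 164 under the wild type label, and MADS2, with 30.5 and 155 under those labels. Apart from MADS14, these passed the minimum only through the wild type label, and a gene that passes in that way had to differ. MADS16, bright on both arrays, had 1179 under the antisense label and 1001 under the wild type label (0.24). Under the minimum, MADS4 (0.58) and MADS7 (0.62) also had the higher signal under the antisense label. Lower there were MADS17 (-0.69), past the minimum, and MADS58 (-1.34), MADS8 and MADS5 (both -0.42) and MADS3 (-0.11), under it. Of the genes past the minimum only MADS16 was higher, so the list leaned lower without sharing a direction throughout. The summed signal of all 16 was 8183 under the antisense label and 14414 under the wild type label, and 13 and 9 of them were under 100 on those arrays. Most of both sums came from MADS14 and from MADS18, which had 6057 under the antisense label and 9773 under the wild type label (-0.69), within 2-fold. MADS1 itself had signals of 42.0 under the antisense label and 41.9 under the wild type label, and MADS6 was under 20 on both. The 4 MADS-box genes past 2-fold and OsGH3-8 differed in opposite directions, OsGH3-4 and those MADS-box genes in the same one. OsGH3-8 and OsGH3-4 were chosen on these same ratios, and most of those MADS-box genes had to differ. With 1 array per genotype no link is read from these directions. Whether the listed genes mark floral organs in a collar was not tested, nor was the part of floral tissue in the difference of OsGH3-8 or of the MADS-box genes. In a pool of whole collars, fewer cells of a type and less RNA per cell cannot be told apart.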

How the data were processed

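The authors scanned 1 array per genotype and derived the signals with GCOS (version not given in the sources used here), with the overall intensity of each array scaled to 500. The deposited values are linear intensity values, with a 2% trimmed mean of 500.1 on both arrays. Detection calls were not used here.

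Control and reporter probe sets (187 of 57381) were left out, signals under 20 were set to 20, and probe sets from a signal of 100 on the brighter array were compared without further normalization. The 2-fold limit follows the study's methods. A single gene is annotated for 22436 probe sets, more than 1 for 95. Symbols and synonyms came from the RefSeq gene table of assembly ASM3414082v1 by gene number, which matched all 22436. No genome build is named for the array, so no coordinates are given.

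The rule for names took all GH3 probe sets, OsLIC, and in each list the genes past 2-fold or else the 2 furthest from 0. DAO, OsAOC, OsOPR7, ARF14, IAA19, LG1, the COI genes and the MADS-box genes were named outside it, after their values were seen. Members and lists were chosen with earlier results of these data known. LAX and DAD genes and TIFY genes without a JAZ name were taken out of the lists. That a gene is represented by its brightest probe set past the minimum was settled after values were seen. Alternatives were other normalizations (median, quantile, loess of fraction 0.4), a pseudocount or floor of 50, other signal minimums, a 3-fold limit, and other choices of probe sets. The code was tested on simulated data. Python 3.11.15, numpy 2.4.6 and pandas 2.3.3 were used.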

Additional observations from a re-analysis of the deposited data

How the results depend on the processing

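The counts of GH3 probe sets, 2 higher and 1 lower under the antisense label, were the same under 10 of 12 alternatives. They were 1 higher and 0 lower with a signal of 100 required on both arrays and with a 3-fold limit. Several of the 10 could not drop a counted gene, so that number is no measure of how firm the counts are. Among these were a lower or no minimum, the removal of _x_at and _s_at probe sets, and 1 probe set per gene. Of 55 log2 ratios of GH3 probe sets under 5 alternatives, 52 moved by less than 0.5 and none of a counted gene changed sign. The exceptions were OsGH3-8, at 2.75 with a pseudocount of 50 and 3.02 with a floor of 50, and the dim OsGH3-7 probe set Os.13846.2.S1_at, at 0 with that floor. These rest on signals near or under 20, and with 1 array per genotype the error of such a signal is unknown.

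Over all probe sets, 1409 higher and 1238 lower became 861 and 700 with a pseudocount of 50, 4860 and 4229 with no minimum, 3807 and 3306 with a minimum of 50, 689 and 581 with one of 200, 520 and 455 with 100 on both arrays, 666 and 507 at 3-fold, and 550 and 420 with 1 probe set per gene. The auxin lists had 1 gene higher with no minimum, against 0, and 0 lower with a minimum of 200 or 100 on both arrays and 1 lower without _x_at and _s_at probe sets, against 2. With the brightest probe set of a gene taken whether or not it passed the minimum, an alternative chosen after seeing the data, 1 auxin gene was lower. The jasmonate lists had 4 higher with a pseudocount of 50 and 3 at 3-fold, against 7. No paired analysis was possible because each genotype has 1 array, and for the same reason no array could be left out.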
